A study of Mus musculus with 15 samples.

Results

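Hox genes encode the homeodomain transcription factors that give each level of the body axis its identity. In the developing hindbrain they are transcribed in nested domains with sharp anterior edges at the borders of the rhombomeres, the segments of the embryonic hindbrain. The cerebellum is derived from the most anterior rhombomere, which is free of Hox transcripts, whereas pons and medulla come from segments that express Hox genes of low paralog number. Transcripts of these genes in a cerebellar sample can therefore be read against the tissue that adjoins the cerebellum. The genes described here were all those in the tables used here whose symbol is Hox with a cluster letter from a to d and a number. Of the 16593 genes measured, 38 met this rule, with 50 probes in all.

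Cerebella of postnatal day 1 mice on a C57BL/6 background were profiled on Illumina MouseRef-8 v2 BeadChips, 1 array for each of 8 WT and 7 KO samples. KO mice were Cxcr4 flox/flox and carried Sox1-Cre, in which Cre is active throughout the neural tube, so that Cxcr4, the receptor of the chemokine SDF-1, is deleted in cells derived from the neural tube. Whether other cells of the cerebellum keep the gene was not measured. WT mice were littermates without Cre, so that no group carries Cre without the deletion. The labels number the WT arrays from 1 to 8 and the KO arrays from 2 to 8. Cxcr4 itself was at 9.26 ± 0.34 on the log2 scale in the 8 WT samples (mean and SD) and at 6.60 ± 0.17 in the 7 KO samples, and the highest KO value of 6.86 was below the lowest WT value of 8.77.

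All levels below are log2 signals after every array was shifted to a common median of 6.81, with the brightest probe standing for its gene. No detection p was at hand, so the level of dim probes was read from 1268 genes with no expected function in brain, namely olfactory and vomeronasal receptors, keratin-associated proteins and beta-defensins. Means of these reference genes had a median of 6.13, and 95% of them were at or under 6.61. The tissue label was checked against 21 genes of the cerebellar territory, of which 17 were measured and 14 lay above that 95th percentile. Reln, a secreted guidance protein of granule cells, was at 14.13, Zic1, a zinc finger factor of granule cell precursors, at 12.86 and En2, a homeodomain factor of the midbrain and cerebellar territory, at 12.26. Atoh1 at 5.84, Calb1 at 5.90 and Pax2 at 6.49 were not above the reference genes although the neonatal cerebellum is known to express them, so a dim probe is no measure of an absent transcript on these arrays. RNA came from whole cerebella, in which fewer cells of a type and less RNA per cell cannot be told apart.

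Hoxa2, the only Hox gene whose anterior edge reaches the second rhombomere and which specifies neurons of the pons and medulla, was the member with the largest spread between arrays. It lies at chr6:52162417-52164831 on the minus strand (GRCm38.p6, RefSeq). Its 250 promoter bases before the transcription start site are shown because the values below turn on this gene, at chr6:52164832-52165081, 5′ to 3′ on the strand of the gene. Capitals mark the 1 match to TGATNNAT, a motif that Hox proteins bind together with their PBX partners, which was searched on both strands and reads here as its reverse complement.
Hoxa2 promoter: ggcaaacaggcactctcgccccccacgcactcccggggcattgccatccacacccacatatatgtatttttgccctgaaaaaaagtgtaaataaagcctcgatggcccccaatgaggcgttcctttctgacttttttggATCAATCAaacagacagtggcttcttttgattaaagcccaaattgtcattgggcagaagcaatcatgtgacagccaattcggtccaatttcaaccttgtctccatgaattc
The match starts at position −111 from the start site. In promoter windows of 300 bases, from 250 before to 50 after the start site, this motif was present in 8.85% of 32851 windows of all genes and in 4 of 24 windows of 22 Hox genes. A CCAAT box, the binding sequence of NF-Y (CCAAT), was present in 37.4% of all windows and in 15 of 24 Hox windows, and a TATA box (TATAAA) in 13.6% and in 4 of 24. GC made up 45.7% of the Hoxa2 window against a median of 52.7% over all windows. A match describes letters and is not a bound site.

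Most Hox genes were dim in the cerebellum at this age. The 38 means ranged from 5.88 for Hoxb7 to 7.12 for Hoxa13 with a median of 6.30, whereas the median of all genes measured was 7.00. Only 4 Hox genes had a mean above the common array median, 10.5% of them, against 54% of all genes. Hoxa2 was 1 of the 4 through 3 arrays described below, without which its mean was 6.72 and the number was 3. Above the 95th percentile of the reference genes were 8 Hox genes, 21.1%, against 60% of all genes. The other 30 had means from 5.88 to 6.55, the highest of them Hoxc8. On single arrays, 2 to 7 Hox genes exceeded the array median and 4 to 9 exceeded the 95th percentile of the reference genes on the same array, which was 6.57 to 6.71.

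**Figure D1:**
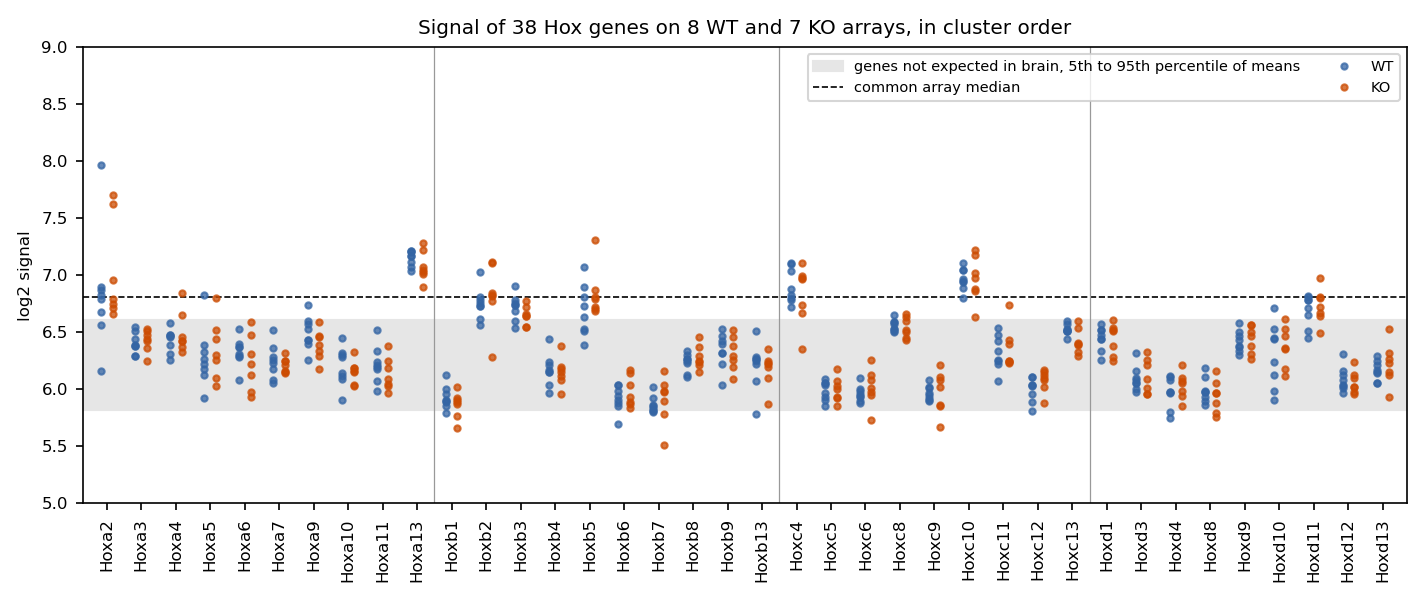
Log2 signal of each of the 38 measured Hox genes (x axis, ordered by cluster A, B, C and D and by number) on 8 WT arrays (blue points) and 7 KO arrays (orange points). The dashed line is the common array median of 6.81 and the grey band spans the 5th to 95th percentile, 5.82 to 6.61, of genes not expected in brain. Most points lie inside the band, Hoxa13 lies above the line on all 15 arrays, and 3 Hoxa2 points lie above 7.5 while the highest of any other Hox gene is 7.31.

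The 8 genes above the reference genes were spread over the 4 clusters and over 7 paralog groups. Cluster A on chromosome 6 held 2 of them among 10 measured genes, cluster B on chromosome 11 held 3 of 10, cluster C on chromosome 15 held 2 of 9 and cluster D on chromosome 2 held 1 of 9. By paralog group, which numbers the genes from the anterior to the posterior end of their expression domains, both measured members of group 2, Hoxa2 at 6.93 and Hoxb2 at 6.79, were above the reference genes. Group 1, whose Hoxb1 defines the identity of facial motor neurons, had 0 of 2 above them, with Hoxb1 at 5.90 and Hoxd1 at 6.45. One gene each stood above in group 3 (Hoxb3, 6.69), group 4 (Hoxc4, 6.87), group 5 (Hoxb5, 6.76), group 10 (Hoxc10, 6.97), group 11 (Hoxd11, 6.71) and group 13 (Hoxa13, 7.12). Groups 6, 7, 8, 9 and 12 had none.

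The posterior genes among them are given with their other probes, because their known domains lie in the lumbosacral cord, the limbs and the urogenital tract. Hoxa13, a factor of distal limb and hindgut, had the highest mean of the members, with a low of 7.04, a median of 7.17 and a high of 7.21 in WT. In KO its lowest, median and highest values were 6.90, 7.05 and 7.28, so that all 15 arrays were above the array median and the groups overlapped. Its other 2 probes had means of 6.74 and 6.39, and over the 15 arrays they correlated with the brightest at r = −0.13 and 0.45. Hoxc10, a gene of lumbar motor neurons, had lowest, median and highest values of 6.80, 6.96 and 7.11 in WT and 6.63, 6.98 and 7.22 in KO, with 13 of 15 arrays above the median. Its second probe had a mean of 5.90, within the range of the reference genes, and r = 0.38 with the brightest. Which of these probes follows the transcript was not tested, and probes cannot be compared in level.

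Of the genes of groups 3 and 4, whose known domains include the medulla, Hoxb3 and Hoxc4 were above the reference genes. Hoxc4, a group 4 gene of the upper spinal cord, gave 6.72, 6.86 and 7.11 as lowest, median and highest value in WT and 6.35, 6.97 and 7.11 in KO. Hoxb3, a gene of the caudal rhombomeres, averaged 6.72 ± 0.11 in WT (SD, n = 8) against 6.65 ± 0.08 in KO (SD, n = 7), and 1 array was above the median. Only its brightest probe was above the reference genes. Its other probes had means of 6.41 and 6.33 and correlated with the brightest at r = −0.12 and 0.25. The other members of both groups, Hoxa3, Hoxa4, Hoxb4, Hoxd3 and Hoxd4, had means of 6.42, 6.46, 6.16, 6.11 and 6.00 and were not above the reference genes.

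No Hox gene passed the test between KO and WT cerebella. With limma and Benjamini-Hochberg adjustment over 16593 genes, 0 Hox genes were lower and 0 higher in KO at an adjusted p under 0.05, where 0.0783% of all genes were lower and 0.0482% higher. At an unadjusted p under 0.05 the number of Hox genes was again 0, against 5.69% of all genes. For no Hox gene did the WT and KO values separate without overlap, which 0.145% of all genes did. The differences were below 0 for 18 Hox genes and above 0 for 20, with a median of 0.0055 where all genes had 0.015. Their median size was 0.052 against 0.054 over all genes.

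The interval of the difference was widest for Hoxa2. Over the other Hox genes the 95% confidence intervals of KO minus WT from limma reached from −0.29 to 0.36. Hoxa13 differed by −0.07 (95% confidence interval −0.20 to 0.05), Hoxc10 by −0.00 (−0.17 to 0.16) and Hoxc4 by −0.08 (−0.29 to 0.13). Hoxa2 differed by 0.18 with a SE of 0.208 and an interval of −0.25 to 0.61 (limma, adjusted p = 0.991). The lowest adjusted p among the members was 0.929 in limma, for Hoxc13, a gene of skin and hair, at 6.52 ± 0.05 in WT (SD, n = 8) against 6.42 ± 0.11 in KO (SD, n = 7).

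**Figure D2:**
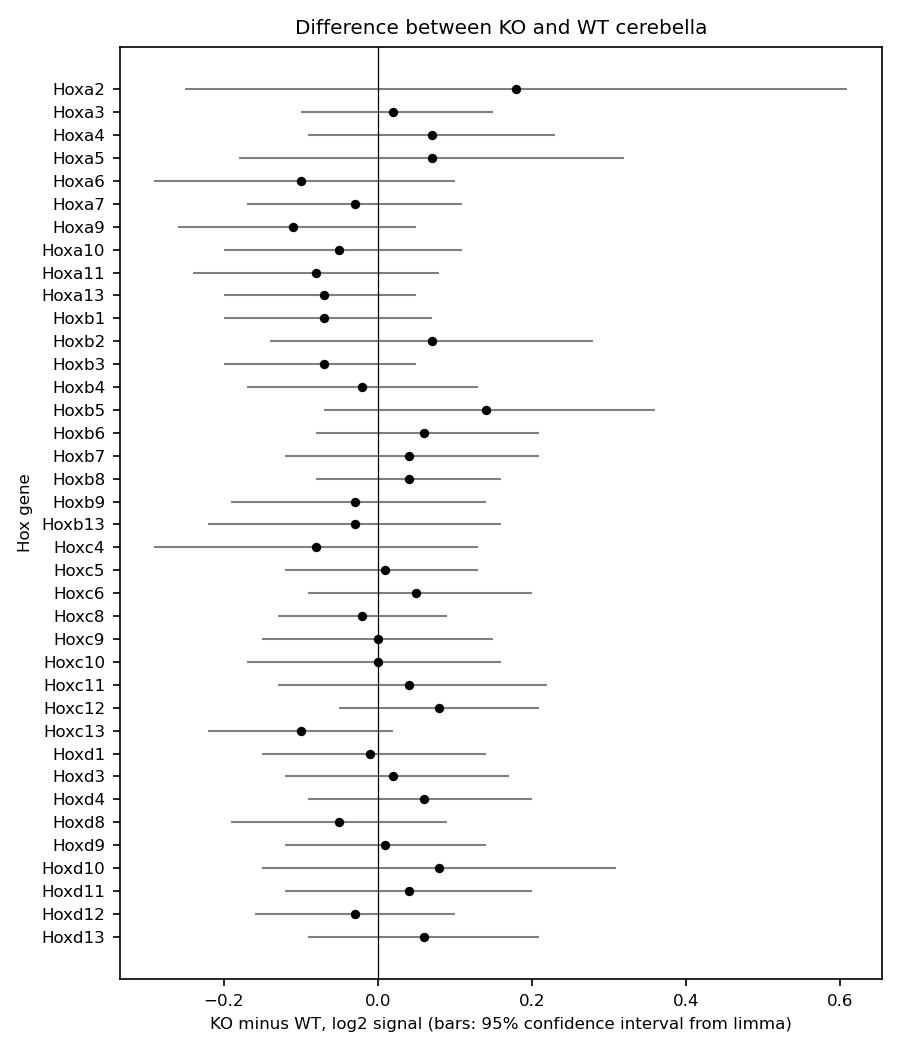
Difference of mean log2 signal between KO and WT (x axis) for the 38 Hox genes (y axis, in cluster order), with points for the estimate from limma and bars for its 95% confidence interval. All 38 bars cross 0, and the widest, of Hoxa2, runs from −0.25 to 0.61.

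Among the Hox genes, Hoxa2 differed most between the samples, and it did so in both genotypes. In WT its lowest, median and highest values were 6.16, 6.81 and 7.97, and in KO they were 6.66, 6.79 and 7.70. On 3 of 15 arrays it stood apart from the rest, WT 1 at 7.97, KO 2 at 7.70 and KO 8 at 7.62. The fourth highest was KO 3 at 6.96, a gap of 0.66 or 1.58-fold in signal. Relative to the median of the other 12 arrays, 6.77, these arrays were 2.29-fold, 1.90-fold and 1.80-fold brighter. The lowest value was that of WT 7 at 6.16.

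A second probe of Hoxa2 was highest on the same 3 arrays. It read 7.70 on WT 1, 7.94 on KO 2 and 7.43 on KO 8, and between 6.23 and 6.81 on the other 12 arrays, with KO 3 next in line. Over the 15 arrays both probes correlated with r = 0.94, a value that includes the 3 high arrays. Their correlation over the other 12 arrays was not computed. The spread of Hoxa2 within genotypes, an SD of 0.46, ranked 179 among all genes measured, whereas the next Hox gene, Hoxa5, had an SD of 0.25, the median Hox gene 0.13 and the median of all genes 0.14.

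Hoxb2, which patterns the facial motor nucleus and has its anterior edge a segment behind that of Hoxa2, was highest on the same arrays. It lies at chr11:96351632-96354020 and has 1 probe. Its values were 7.03 on WT 1, 7.12 on KO 2 and 7.11 on KO 8, and 6.28 to 6.84 on the other arrays, a smaller step than that of Hoxa2. By genotype the lowest, median and highest were 6.56, 6.75 and 7.03 in WT and 6.28, 6.83 and 7.12 in KO, which overlapped throughout.

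Hoxb5 and Hoxa5, genes of the caudal medulla and cervical cord, were high on partly different arrays. Hoxb5 was highest on KO 8 at 7.31, followed by WT 2 at 7.07 and WT 1 at 6.90, and its remaining values were 6.39 to 6.87. Hoxa5 reached 6.83 on WT 2 and 6.80 on KO 8, and 5.92 to 6.52 elsewhere. Of these 4 genes, KO 8 was thus among the 3 highest arrays for all, and WT 2 for both genes of group 5 and neither of group 2.

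**Figure D3:**
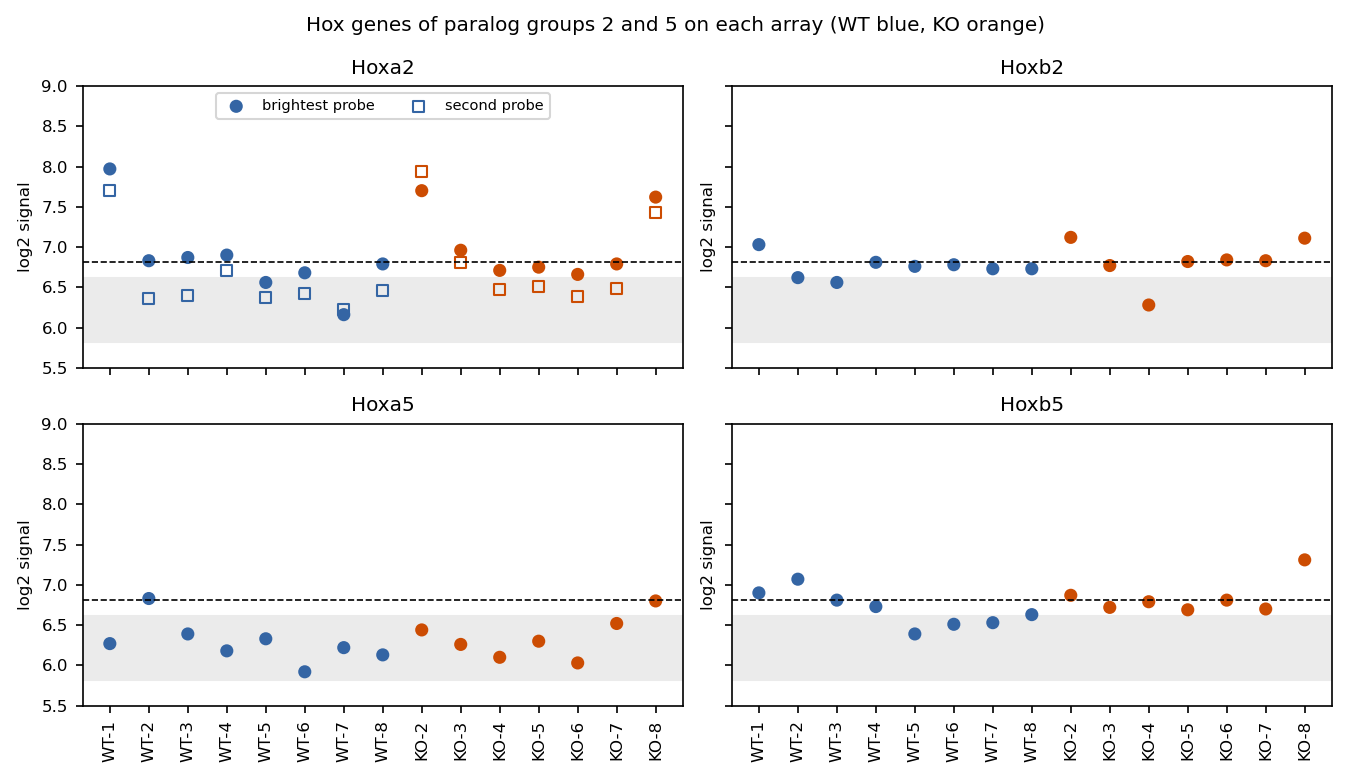
Log2 signal (y axis) of Hoxa2, Hoxb2, Hoxa5 and Hoxb5 on each of the 15 arrays (x axis, WT blue, KO orange), with filled circles for the brightest probe and open squares for the second probe of Hoxa2. The dashed line is the common array median of 6.81 and the grey band spans 5.82 to 6.61, the reference genes. Hoxa2 and Hoxb2 are highest on WT 1, KO 2 and KO 8, and Hoxa5 and Hoxb5 on WT 2 and KO 8.

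KO 8 also carried a small excess over the Hox genes as a whole. Its mean deviation from the gene means over 38 Hox genes was 0.125, and 0.110 without Hoxa2, the highest of the 15 arrays. The lowest was KO 5 at −0.081. KO 8 was the highest array for 10 of 38 Hox genes, among them Hoxa6, Hoxb6, Hoxc6 and Hoxd4, all of which stayed dim there. The share of all genes that were highest on KO 8 was not counted. KO 8 was also the highest array for the list of skeletal muscle and cartilage markers, at 0.08, followed by KO 6 and KO 7 at 0.06. Whether the excess is particular to Hox genes was not tested. WT 1 and KO 2 deviated by 0.020 and 0.025, and by −0.007 and 0.005 without Hoxa2, so the mean over all Hox genes did not set these arrays apart.

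**Figure D4:**
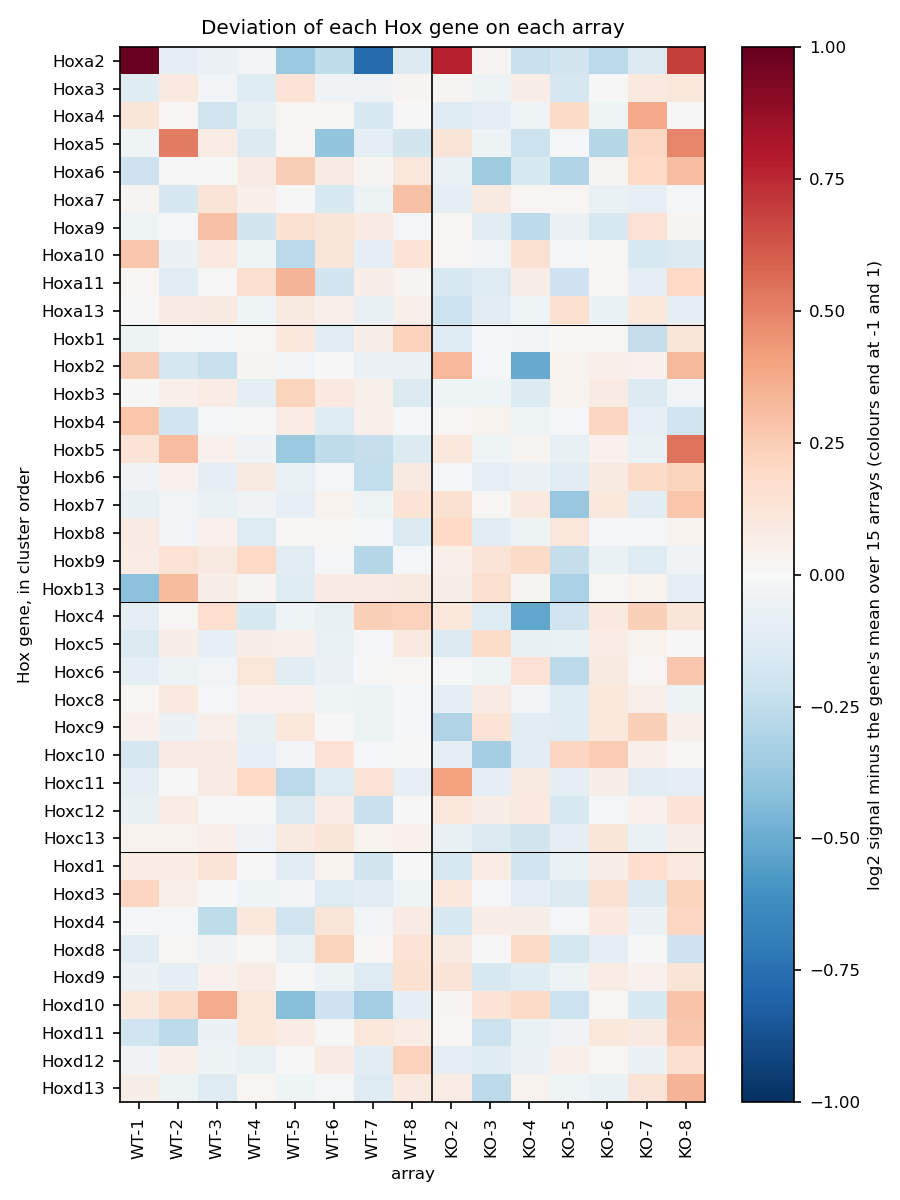
Deviation of log2 signal from the mean of the gene over 15 arrays, as colour from −1 (blue) to 1 (red), for 38 Hox genes (rows, in cluster order) and 8 WT and 7 KO arrays (columns). The darkest red cells are Hoxa2 on WT 1, KO 2 and KO 8, and column KO 8 holds the highest value of 10 of the 38 genes.

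The genes outside the Hox family whose pattern was most like that of Hoxa2 were ranked by Pearson correlation over the 15 arrays with genotype means subtracted. The leading 10 were Nr2f2, Atoh7, Cln8, Ppargc1a, Selenbp2, Aqp8, Pisd, Setd2, Grb2 and Ciart, with r from 0.83 to 0.71. Nr2f2, an orphan nuclear receptor, ranged from 8.27 to 9.07 and had r = 0.83. Atoh7, the proneural factor of retinal ganglion cells that is also expressed in bushy neurons of the cochlear nucleus, had r = 0.81 and was the member of these 10 with the largest range. It read 7.89 on WT 1, 8.08 on KO 2 and 8.48 on KO 8, and 6.32 to 7.11 on the other 12 arrays, which describes the pattern it was chosen for. Its mean of 6.99 passed the array median, which the ranking required, only through these arrays, since the other 12 averaged 6.7. Over the 12 arrays without high Hoxa2 these r lay between −0.38 for Atoh7 and 0.64 for Grb2, so that the likeness of Atoh7 rests on 3 arrays. Among Hox genes, of which no level was required, the most alike were Hoxd3 with r = 0.74, Hoxb2 with 0.63 and Hoxb5 with 0.63. Over the other 12 arrays these were 0.21, −0.03 and 0.48. Hoxd3 ranged only from 5.96 to 6.33, at the level of the reference genes.

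Markers of brainstem neurons were measured beside the Hox genes as a list. Of 28 listed genes 26 were measured and 10 were above the reference genes, against 60% of all genes, with a median level of 6.46, and 0 differed between genotypes at an adjusted p under 0.05 in limma. The mean deviation over the list ranged from −0.08 to 0.20 in WT and from −0.06 to 0.14 in KO. On the arrays with high Hoxa2 it was −0.05 for WT 1, −0.00 for KO 2 and 0.14 for KO 8, so that KO 8 was second of the 15 arrays. The highest was 0.20 for WT 7, the array with the lowest Hoxa2, which was also highest for the lists of the cerebellar territory (0.21) and of midbrain and forebrain (0.12). Genes of 1 cell type differed in signal within the list, although probes cannot be compared in level. Dbh and Th, enzymes of noradrenaline synthesis, had means of 6.16 and 6.10, within the range of the reference genes, while Slc6a2, the noradrenaline transporter, had 6.79. Tph2, the enzyme of serotonin synthesis, had 6.30, while Gata2 and Lmx1b, factors of serotonergic neurons, had 7.30 and 6.68. Chat, the enzyme of acetylcholine synthesis, had a mean of 6.50. Slc5a7, the choline transporter, had 6.94 and Isl1, a factor of motor neurons, 7.30. Chat was highest on KO 2, followed by WT 2 (6.70), Slc5a7 on WT 1 and Isl1 on WT 7. On WT 1, KO 2 and KO 8, Chat read 6.64, 6.96 and 6.56. Slc5a7 read 7.29, 6.81 and 6.89 on these arrays, and Isl1 7.42, 7.17 and 7.69. Slc6a5, the glycine transporter of inhibitory neurons, had 5.98.

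By array, Slc6a2 read 8.57 on WT 7 and 7.79 on KO 8 and 6.23 to 6.80 on the other arrays. Dbh was also highest on WT 7 at 6.59, followed by KO 8 at 6.50. Th was highest on KO 8 at 6.47, followed by WT 7 and WT 8 at 6.24. These values of Dbh and Th were within the range of the reference genes. Gata2 read 8.28 on KO 2 and 6.82 to 7.65 on the other arrays, with WT 1 at 7.65, KO 3 at 7.59 and KO 8 at 6.98. On WT 1, KO 2 and KO 8, Lmx1b read 6.75, 6.88 and 6.48, and it was highest on WT 4 at 6.97. On the same arrays Tph2 read 6.12, 6.30 and 6.49, Gata3 6.16, 6.25 and 6.22, and Slc6a4 6.24, 6.26 and 6.18. These values of Tph2, Gata3 and Slc6a4 were within the range of the reference genes. The brightest of the list, Tlx3 at 9.60, Chrna3 at 9.23 and Pou3f1 at 8.02, are transcription factors and a nicotinic receptor subunit that are not confined to the brainstem.

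Arrays also differed in non-neural tissue, and the arrays high in it included ones with and ones without high Hoxa2. Choroid plexus markers, of which 9 of 12 were measured and all 9 were above the reference genes, had mean deviations of −1.33 to 2.15 in WT and −1.61 to 2.48 in KO. Ttr, the thyroxine carrier of choroid plexus epithelium, read 15.57 on KO 2 but 9.55 on WT 1 and 7.30 on KO 8. It also read 15.44 to 15.87 on WT 4, WT 6, WT 8, KO 3 and KO 5, arrays without high Hoxa2. Meningeal markers, with 12 of 12 measured and 11 above the reference genes, deviated by −0.36 to 0.84 in WT and by −1.36 to 0.87 in KO. They were at 0.60 on WT 1, 0.44 on KO 2 and −1.36 on KO 8, and highest on KO 4 (0.87) and WT 6 (0.84), arrays without high Hoxa2. Both lists thus lay on opposite sides of 0 among the arrays with high Hoxa2, and their part in the Hoxa2 values was not tested. Markers of skeletal muscle and cartilage deviated by −0.08 on WT 1 to 0.08 on KO 8, with 6 of 19 measured genes above the reference genes.

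**Figure D5:**
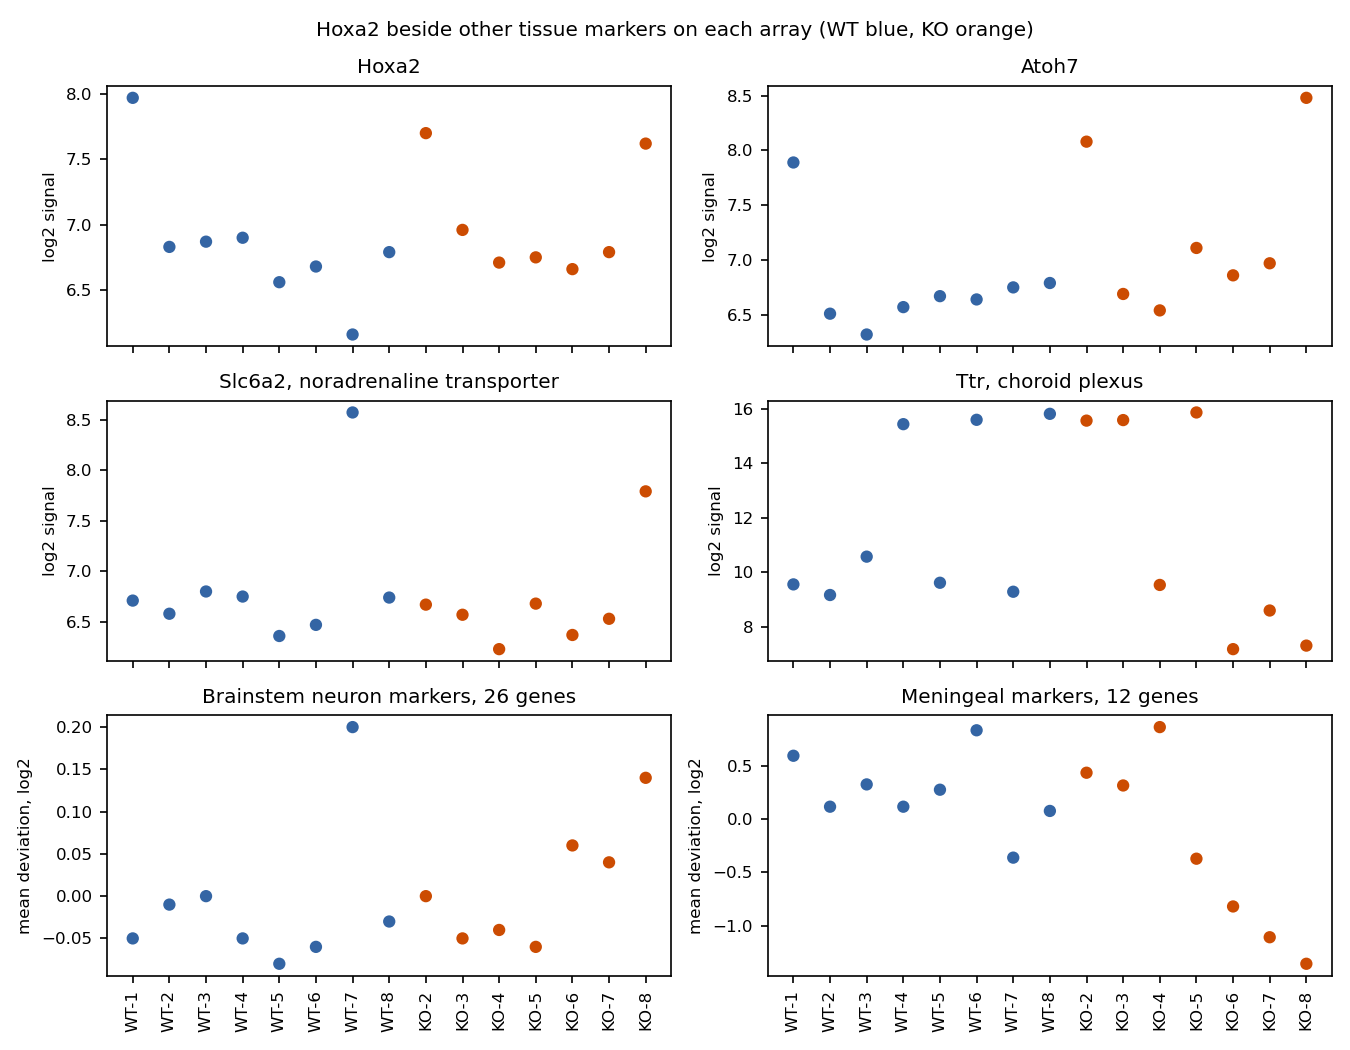
Values on each of the 15 arrays (x axis, WT blue, KO orange) of Hoxa2, Atoh7, Slc6a2 and Ttr as log2 signal and of 26 brainstem neuron markers and 12 meningeal markers as mean deviation from the gene means on the log2 scale. Hoxa2 and Atoh7 are high on WT 1, KO 2 and KO 8, and Slc6a2 on WT 7 and KO 8. Ttr is high on WT 4, WT 6, WT 8, KO 2, KO 3 and KO 5 but not on WT 1 or KO 8.

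Probes for the machinery with which Hox proteins act were mostly above the reference genes, as 60% of all genes were. Of the TALE homeodomain cofactors, which bind DNA jointly with Hox proteins, 7 of 9 listed were measured and all 7 were above the reference genes, with Meis1 at 12.24, Meis2 at 10.66 and Pknox1 at 9.26. None of them passed the test between genotypes (0 lower and 0 higher in limma), where 0.0783% of all genes were lower and 0.0482% higher. The mean deviation of these cofactors by array was −0.15 to 0.19. Polycomb and trithorax genes, which keep Hox loci silent or active, were measured for 16 of 18, and 14 were above the reference genes. Suz12 at 12.11, Phc2 at 11.79 and Phc1 at 11.77 led that list, and 0 were lower and 0 higher in KO.

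Genes that set the Hox domains in the embryo were above the reference genes about as often as all genes. Of 18 segmentation and retinoid genes 14 were measured, 9 of them were above the reference genes where 60% of all genes were, and 0 were lower and 0 higher in KO. Gbx2, which positions the border between midbrain and hindbrain, led with a mean of 10.05 and read 11.77 on KO 2, 10.42 on WT 1, 10.39 on KO 8 and 9.08 to 10.59 on the other arrays. Cyp26b1, a retinoic acid degrading enzyme, was at 8.60 and Fgf8, the signal of the midbrain and hindbrain border, at 7.53. Rarb, a retinoic acid receptor with a hindbrain domain in the medulla, was highest on KO 2 at 7.65 and WT 1 at 7.52. WT 6 followed at 7.42, KO 8 read 7.33 and the remaining arrays 6.43 to 7.32. Rarg, another receptor of the list, read 6.74, 6.44 and 6.78 on WT 1, KO 2 and KO 8. Its value on KO 2 was its lowest and that on KO 6, 7.18, its highest. Rara read 6.31, 6.24 and 6.30 on WT 1, KO 2 and KO 8, within the range of the reference genes.

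Arrays numbered 5 to 8 were compared with those numbered 1 to 4, since many genes differ between these sets, which hold 4 WT and 4 KO arrays and 4 WT and 3 KO arrays. The labels do not say what the numbers stand for. With genotype in the model, limma called 2 Hox genes lower (5.26%) and 1 higher (2.63%) in arrays 5 to 8, where 4.45% of all genes were lower and 16.3% higher. Hoxb9 was lower by −0.23 (SE 0.0548, limma adjusted p = 0.00545), Hoxd10 by −0.31 (SE 0.0844, adjusted p = 0.0135), and Hoxd11 was higher by 0.18 (SE 0.0628, adjusted p = 0.0461). Hoxb9 ranged from 6.04 to 6.53 and Hoxd10 from 5.91 to 6.71, at the level of the reference genes. The call of Hoxd11 was lost when any one of 11 of the 15 arrays was left out, WT 1, 2, 3, 5, 7 or 8 and KO 3, 4, 6, 7 or 8, and with quantile normalization, no normalization or normexp background. Hoxa2 differed by −0.40 between the sets (SE 0.191, limma adjusted p = 0.153), a difference that was called without KO 8 and with no normalization. Its high arrays belonged to both, WT 1 and KO 2 to the first and KO 8 to the second. The interaction of genotype and array set was called in limma for 0 Hox genes and for 0% of all genes, with 4 of 38 Hox genes against 9.97% of all genes at an unadjusted p under 0.05 and a lowest adjusted p of 0.367 for Hoxd8.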

How the data were processed

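Expression was measured in 8 WT and 7 KO cerebella, grouped by the genotype in the labels, on 15 Illumina BeadChip arrays. The authors amplified and biotin-labelled total RNA and extracted probe signals with GenomeStudio. The first deposited table holds the linear signal intensity of each probe, not normalized between arrays. The second holds the authors' log2 values after median normalization, and equals the first after log2 and centring to within 6.2e-05. Neither gives a detection p, sex or BeadChip of an array. Where replicates share a litter is not given in the sources used here, and p-values measure the spread between these samples. Arrays correlated at 0.984 to 0.996, array medians of the signal were 97.3 to 122.9, with precision limited by the number of arrays.

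Intensities were log2 transformed and shifted to a common median of 6.81. Of 25697 probes 23978 carried 1 symbol in the platform annotation and 1719 none, and 23962 matched RefSeq GRCm38.p6. The probe with the highest mean stood for its gene, 4777 of 16593 genes having several. No dim genes were removed. KO and WT, array sets and their interaction were compared with limma 3.58.1 (lmFit and eBayes, both sides, Benjamini-Hochberg over all genes, threshold 0.05) in R 4.3.3. On simulated data for KO against WT with 16593 genes, this test called 36 of 100 genes with a log2 change of 0.3, 90 of 100 with one of 0.6, and 4 unchanged genes. The simulated noise was normal and independent between genes and arrays. It held no differences between array sets or in tissue, so these rates need not hold for the measured arrays. Sequences came from RefSeq GRCm38.p6. Python 3.11.15, numpy 2.4.6, pandas 2.3.3 and matplotlib 3.10.9 served for other values.

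The Hox genes, the 9 lists, the division into array sets and the tests were chosen with earlier results of these data known. The rule named every Hox gene, the Hox gene with the largest SD within genotypes as anchor, the 10 other genes most correlated with it among those above the array median, and from each list the 3 brightest genes and those past the threshold. Atoh1, Calb1, Pax2, Dbh, Th, Tph2, Chat, Slc6a5, Slc6a2, Slc5a7 and Isl1 were named after their values were seen. The same holds for Lmx1b, Gata2, Gata3, Slc6a4, Rara, Rarb, Rarg and Ttr. In the list of the cerebellar territory, Gdf10 was lower (−0.78, limma adjusted p = 0.000162) and Barhl1 higher (0.50, limma adjusted p = 0.0137) in KO, and 0 of 14 midbrain and forebrain genes, 9 choroid plexus genes, 19 skeletal muscle and cartilage genes and 12 meningeal genes passed. Alternatives were the authors' log2 table, quantile normalization or none, normexp background (offset 50), averaging the probes of a gene, genes above the array median on 7 or more arrays, the array set as a block or each set alone, a replicate block, array weights, a trended and robust variance, and each array left out.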

Additional observations from a re-analysis of the deposited data

Results flagged for a closer look

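In 4 of 76 sets of values, 1 per Hox gene and genotype, the highest or lowest array lay far from the nearest other array relative to the range of the set. Chance gives about 1 in 20 such cases. Hoxa2 was 7.97 on WT 1, where the next WT array had 6.90. Hoxb5 was 7.31 on KO 8 with 6.87 next. Hoxc11, a gene of the posterior limb and cord, was 6.74 on KO 2 with 6.43 next. Hoxb2 was 6.28 on KO 4, lower than the next KO array at 6.77. The high Hoxa2 values of KO 2 and KO 8 were not among these cases, because each has the other near it.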

How the results depend on the processing

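The number of Hox genes called between KO and WT was 0 lower and 0 higher in all 28 alternatives, including the replicate block (0 and 0) and, chosen after seeing the data, the arrays without the 3 highest in Hoxa2. Same-numbered arrays correlated at −0.196 to 0.394 in their deviations and 1 of 7 correlated best with its own number, so the numbers were not taken as pairs. The Hoxa2 difference ranged from −0.02 to 0.40, with the sign turned on arrays 1 to 4 alone (−0.02), and was 0.34 with the replicate block. It was 0.09 without the 3 arrays highest in Hoxa2, and its lowest adjusted p in limma was 0.5. That of Hoxa13 ranged from −0.16 to −0.01, of Hoxc4 from −0.17 to 0.00 and of Hoxc10 from −0.15 to 0.11, the last around 0 and with no call. The number of Hox genes above the array median was 4, but 2 with the mean of a gene's probes and 8 against the 95th percentile of the reference genes. It was 5 without KO 4 and 3 without the 3 arrays highest in Hoxa2. Between array sets 3 Hox genes were called, but 9 with no normalization and 0 among genes above the array median on 7 or more arrays, a filter that leaves 5 Hox genes. Leaving out 1 array each gave 2 to 4 calls. The gap between the lowest of the 3 arrays high in Hoxa2 and the next array was 0.66 and fell to 0.35 with no normalization. Brightness limits these values, since 30 of 38 Hox genes were within the reference genes, where a change in transcript need not change the signal.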
